A study of Mus musculus with 2 samples.

Results

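The genes described here encode 10 antimicrobial or antiprotease proteins of the lung surface: Lyz1, Lyz2, Bpifa1, Bpifb1, Ltf, Lcn2, Slpi, Wfdc2, Reg3g and Camp. They were chosen by symbol, and all 10 were found among the 43346 gene rows of each table. The RNA came from the lung of 1 adult female C57BL/6J mouse, 10 weeks old, with no treatment or genetic change named in the labels. Polyadenylated RNA of biological replicate 1 gave 2 libraries, called technical replicates 1 and 2 in the labels, of which the second was made later. There is therefore 1 group, and each SD (n = 2) measures technical spread alone.

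These proteins form part of the fluid that lines the airways and air spaces. Lysozymes cut the peptidoglycan of bacterial walls. Bpifa1 and Bpifb1 belong to a family of lipid-binding secreted proteins of the upper and conducting airways. Lactoferrin, the product of Ltf, binds iron, and Lcn2 binds the siderophores with which bacteria collect it. Slpi and Wfdc2 carry whey acidic protein domains, and Slpi inhibits neutrophil elastase. Reg3g is a secreted lectin that acts on Gram-positive bacteria, and Camp encodes the mouse cathelicidin, which neutrophils store in granules.

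The sequences below carry the results that follow. Lyz1 and Lyz2 lie side by side on the minus strand of chromosome 10, at 117287797 to 117292868 and at 117277331 to 117282321 on GRCm38, the assembly also called mm10. Their coding sequences are both 444 bases long. Coding bases 43 to 132, counted from the first base of the start codon, are shown because they hold 13 of the 22 coding bases at which the genes differ. Differing bases are in capitals.
Lyz1: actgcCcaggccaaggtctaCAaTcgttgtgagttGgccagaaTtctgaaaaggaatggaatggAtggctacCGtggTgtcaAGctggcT
Lyz2: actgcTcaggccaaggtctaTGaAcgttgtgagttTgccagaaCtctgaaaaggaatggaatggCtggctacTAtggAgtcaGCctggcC
The stretches upstream of the same genes, 250 to 61 bases before the RefSeq transcript starts on the minus strand of GRCm38.p6, are shown because the genes differ in level. Capitals mark a match to a C/EBP motif described with the lysozyme results.
Lyz1 upstream, chr10:117292929-117293118: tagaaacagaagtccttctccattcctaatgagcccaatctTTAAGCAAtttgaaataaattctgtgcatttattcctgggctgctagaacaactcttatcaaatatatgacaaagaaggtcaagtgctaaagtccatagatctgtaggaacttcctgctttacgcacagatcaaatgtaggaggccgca
Lyz2 upstream, chr10:117282333-117282522: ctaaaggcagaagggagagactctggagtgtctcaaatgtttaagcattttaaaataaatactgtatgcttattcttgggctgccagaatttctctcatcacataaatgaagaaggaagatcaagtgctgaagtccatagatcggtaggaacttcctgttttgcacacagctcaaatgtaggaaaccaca
Exons 2 and 3 of the longest coding transcript of Wfdc2 are shown because the leading transcript of replicate 1 lacks both. That of replicate 2 holds both, and another transcript of replicate 1 holds exon 2 and most of exon 3. Exon 3 of Reg3g is set beside these Wfdc2 exons for its base composition. The ratio of Reg3g between the libraries was the lowest among the genes described here that were tested. In these 3 coding exons G and C are in capitals.
Wfdc2 exon 2, chr2:164563308-164563451, plus strand: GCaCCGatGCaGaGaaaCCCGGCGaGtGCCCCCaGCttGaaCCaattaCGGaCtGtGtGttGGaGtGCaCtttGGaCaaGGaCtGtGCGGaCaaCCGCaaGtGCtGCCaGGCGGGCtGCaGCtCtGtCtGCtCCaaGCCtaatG
Wfdc2 exon 3, chr2:164564057-164564212, plus strand: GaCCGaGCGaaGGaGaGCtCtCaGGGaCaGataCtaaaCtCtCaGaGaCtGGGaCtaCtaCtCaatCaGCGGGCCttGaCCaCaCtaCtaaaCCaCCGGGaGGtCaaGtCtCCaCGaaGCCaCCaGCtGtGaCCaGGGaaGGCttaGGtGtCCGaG
Reg3g exon 3, chr6:78467799-78467917, minus strand: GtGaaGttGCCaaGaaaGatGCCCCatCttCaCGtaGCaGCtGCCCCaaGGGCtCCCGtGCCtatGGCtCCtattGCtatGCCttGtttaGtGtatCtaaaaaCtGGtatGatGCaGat
G and C make up 59.0% and 55.8% of the Wfdc2 exons and 48.7% of the Reg3g exon. Exons 2, 4 and 5 of Reg3g have 51.9%, 52.9% and 50.8%, so the printed exon is lower than these. Exon 6, which is mostly non-coding, has 40.1%.

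The libraries held 16104442 and 17110882 expected counts, which are reads per gene as the authors estimated them. At these depths 3 counts, the limit that a count of 0 allows, amount to 0.186 and 0.175 CPM (counts scaled to library size). Genes differed widely between the technical replicates. Of 14139 genes with a mean level of at least 1 TPM (a level corrected for transcript length and library size), 39.3% were over 2-fold higher in replicate 2 and 28.2% over 2-fold lower, or 67.5% in either direction. These ratios compare counts after TMM scaling, which corrects for depth and composition, and their median over all genes tested was 0.19 on the log2 scale. The ratio followed the GC content of the transcripts across all genes. With 1 library on each side no p-value is given, and the 95% intervals of ratios are exact Clopper-Pearson intervals that cover counting error only.

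Of the 10 genes, 9 reached a TPM of 1 in both libraries, whereas 49.9% of the 21474 protein-coding genes did so. The exception was Camp. Added up, the 10 genes made 7227 TPM of replicate 1 and 15824 of replicate 2, a mean of 11526 ± 6078 (SD, n = 2), or 0.723% and 1.58% of all transcripts. Lyz2 made up 79.1% and 72.6% of these sums. Without both lysozymes the other 8 genes summed to 464 and 3311 TPM.

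**Figure D1:**
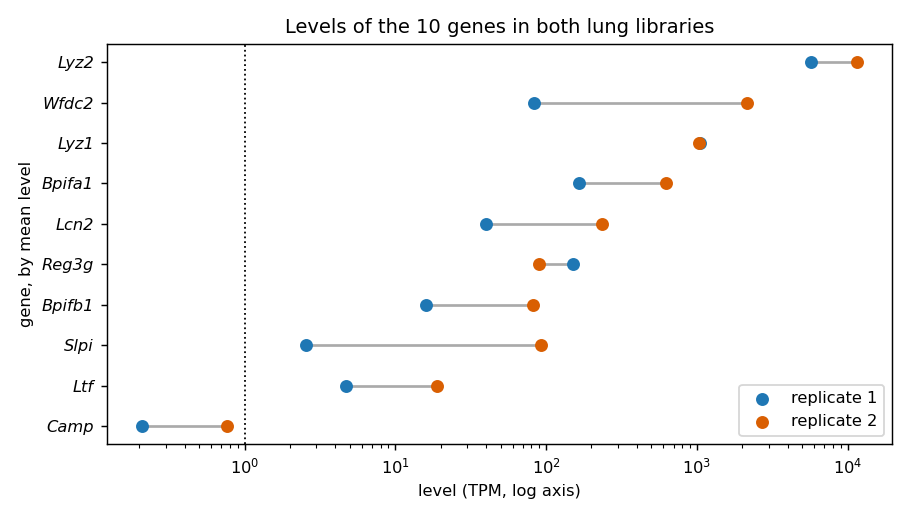
Level of each gene in TPM on a log axis, with 1 point per library (replicate 1 blue, replicate 2 orange) and genes ordered by their mean; the dotted line marks a TPM of 1. Lyz2 lies to the right of all others in both libraries, Camp lies below 1 in both, the points of Lyz1 coincide, and those of Wfdc2 and Slpi are the farthest apart.

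By mean level the order was Lyz2 at 8601 ± 4080 TPM, Wfdc2 at 1124 ± 1472, Lyz1 at 1036 ± 15.4, Bpifa1 at 397 ± 325, Lcn2 at 137 ± 138, Reg3g at 121 ± 43.1, Bpifb1 at 49.1 ± 47.04, Slpi at 47.3 ± 63.3, Ltf at 11.8 ± 10.03 and Camp at 0.485 ± 0.389 TPM (SD, n = 2). In both libraries Lyz2 was above every other member and Camp below. The ranges of neighbours in this order did not overlap between Lyz2 and Wfdc2, Lyz1 and Bpifa1, Reg3g and Bpifb1, or Ltf and Camp. They did overlap for Wfdc2 and Lyz1, Bpifa1 and Lcn2, Lcn2 and Reg3g, Bpifb1 and Slpi, and Slpi and Ltf. Within each library Bpifa1 was above Lcn2, at 166 against 39.6 TPM and at 627 against 235 TPM. The order within the other overlapping pairs reversed between the technical replicates and is not resolved. Wfdc2 held place 5 of the 10 in replicate 1 and place 2 in replicate 2, while Reg3g held places 4 and 7.

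Lyz2, the lysozyme gene of macrophages and alveolar type 2 cells, reached 5716 TPM in replicate 1 against 11487 in replicate 2. These levels ranked 15 and 5 among protein-coding genes. Lyz1, the lysozyme gene best known from Paneth cells of the gut, was at 1047 and 1026 TPM, ranks 77 and 110. Lyz1 thus had nearly the same level in both libraries while Lyz2 was higher in replicate 2, by 2.22-fold in scaled counts (2.198 to 2.236). The count of Lyz1 gave 1.08-fold (1.06 to 1.11).

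The ratio between the lysozymes therefore depended on the library. Lyz2 had 5.46 times the TPM of Lyz1 in replicate 1 and 11.2 times in replicate 2. In counts the ratios were 5.47 (5.36 to 5.57) and 11.2 (11.05 to 11.4), intervals that do not overlap. Their transcripts have close to the same GC content, 47.7% in Lyz1 and 48.3% in Lyz2. Summed into 1 feature, the pair was 2.04-fold higher in replicate 2 (2.02 to 2.06).

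Because the genes are close copies, the way reads were divided between them bears on this ratio. Over 1262 aligned bases the reference transcripts differ at 51, and 96.0% are identical. The coding sequences are identical at 422 of 444 bases. The longest stretch without a difference runs over 118 bases. Of all stretches of 36 bases in the Lyz1 transcript, 28.5% also occur in Lyz2, and of those of 100 bases 2.06%. The read length is not given in the sources used here. The authors' posterior SD of the count of either gene was 1.14 counts in replicate 1 and 4.84 in replicate 2, against 12707 and 17490 counts for Lyz1.

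**Figure D2:**
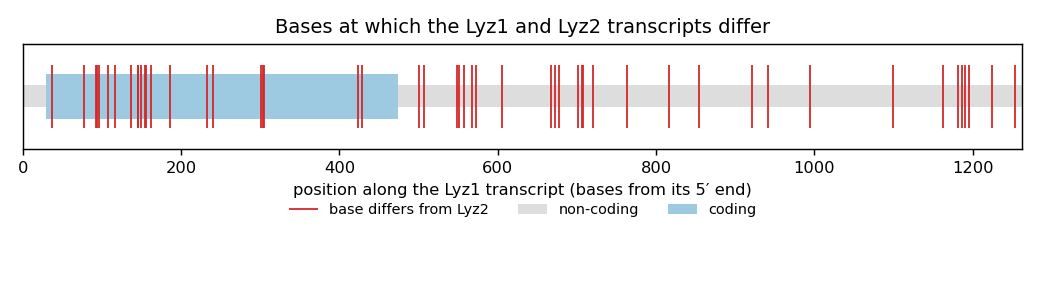
Map of the Lyz1 transcript from its 5′ end, in bases, with the coding part in blue and a red line at each of the 51 aligned bases that differ from Lyz2. Differences lie along the whole transcript, 22 of them in the coding part, and the widest gap between them is 118 bases.

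Upstream of the start the pair differed more. Of 248 aligned bases in the 250 before the RefSeq starts, 80.6% were identical. The RefSeq start of Lyz2 lies inside exon 1 of the transcript compared above (chr10:117282107-117282321). The last part of its 250 bases, which is not printed, is therefore mostly annotated exon. The letters TTNCNNAA, a C/EBP motif, were searched on both strands of the 250 upstream bases of all 12 RefSeq promoters of the 10 genes and of 32851 promoters in all. They occurred in 8 of the 12, belonging to Bpifa1, Lcn2, Ltf, Lyz1, Lyz2, Slpi and Wfdc2, and in 36.8% of all promoters. The 12 are not independent, since the promoters of Lyz1 and Lyz2 are alike and those of Wfdc2 nearly coincide, from chr2:164562465 and chr2:164562466. The match printed for Lyz1 has no counterpart in the printed Lyz2 stretch. The match of Lyz2 lies nearer to its start, in the part that is not printed. TATAAA occurred in 2 of the 12, those of Bpifa1 and Reg3g, and in 12.4% of all. An NF-kappaB motif occurred in 0 of the 12 and in 1.41% of all. Each motif was searched on its own, overlaps between them were not counted, and a match is a description of letters only.

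Bpifa1 and Bpifb1 encode the short and the long PLUNC protein. They lie on the plus strand of chromosome 2, at 154142880 to 154149219 and 154190818 to 154220369, with Bpifa5 between them. Bpifa1 reached 166 TPM in replicate 1 against 627 in replicate 2, from 1725 and 9124 counts. This was 4.15-fold higher in replicate 2 (3.94 to 4.37). Bpifb1 was at 15.9 and 82.4 TPM, from 264 and 1973 counts, 5.86-fold higher (5.16 to 6.69). Both genes were thus higher in replicate 2, and Bpifa1 was above Bpifb1 in each library.

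The other genes of the BPI and PLUNC family were mostly silent. Of 15 listed, 12 stayed under a TPM of 1 in each library and 9 had no count at all. Pltp, the phospholipid transfer protein, was at 13.6 and 343 TPM, and Lbp, the lipopolysaccharide binding protein, at 8.19 and 25.0 TPM. Bpifb5 had 1 and 58 counts. All 3 genes tested were over 2-fold higher in replicate 2, against 39.3% of all genes. Their median log2 ratio was 4.996, and 1.80 with the GC trend described further on subtracted, against 0.19 and -0.02 over all genes.

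Ltf, on chromosome 9 at 111019271 to 111042767, reached 4.68 TPM in replicate 1 against 18.9 in replicate 2. Its 134 and 762 counts made it 4.46-fold higher in replicate 2 (3.71 to 5.40). Lcn2, on chromosome 2 at 32384633 to 32388252, was at 39.6 and 235 TPM. Its 323 and 2717 counts gave 6.60-fold (5.88 to 7.43). Lcn2 was above Ltf in both libraries. Transferrin, Trf, the iron carrier of plasma, was at 447 and 592 TPM, above both, and 3.64-fold higher in scaled counts (3.48 to 3.80).

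Slpi, the elastase inhibitor, reached 2.57 TPM in replicate 1 against 92.1 in replicate 2. Its 20 and 991 counts made it 38.9-fold higher (25.0 to 63.9). Wfdc2, a WAP protein of airway epithelium also measured in serum as HE4, was at 83.4 and 2165 TPM. These levels ranked 1438 and 38 among protein-coding genes. Its 230 and 21977 counts made it 74.98-fold higher (65.8 to 85.8). Both WAP genes thus had the widest gaps between libraries of all 10. For Wfdc2 the ratio of TPM was 26.0, since shorter transcripts led in replicate 1 and TPM corrects for length.

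Other WAP genes moved in both directions. The tables hold 13 listed genes and 6 were tested, with 2 over 2-fold higher in replicate 2 and 2 lower, against 39.3% and 28.2% of all genes. Their median log2 ratio was -0.41, and -0.62 with the GC trend subtracted. Wfdc17 was at 86.5 and 55.04 TPM, Wfdc21 at 37.8 and 28.2 TPM and Wfdc1 at 10.2 and 40.7 TPM. Elane, the elastase that Slpi inhibits, had 0 and 1 counts.

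Reg3g, on chromosome 6 at 78466269 to 78468872, reached 151 TPM in replicate 1 against 90.2 in replicate 2, from 1034 and 847 counts. It was the only one of the 9 genes tested with more scaled counts in replicate 1, by 1.56-fold (1.42 to 1.71), which lies within 2-fold. Of the other 11 Reg and beta-defensin genes listed, all stayed under a TPM of 1 and 8 had no count. Reg3b and Reg3a were among these 8. Defb1, the constitutive beta-defensin, had 7 and 3 counts. Lysozyme-like genes were likewise silent, with 8 of 8 below a TPM of 1 and Lyzl4 the highest at 1 and 5 counts.

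Camp, on chromosome 9 at 109847379 to 109849617, had 1 count in replicate 1 and 5 in replicate 2, or 0.21 and 0.76 TPM. The ratio of 3.92 has a counting interval of 0.439 to 186, so no difference was detectable at this depth. Of the 11 listed genes of neutrophil granules, 6 stayed under a TPM of 1 in each library. Mpo had no count, Elane and Ctsg had 0 and 1 each, Ngp had 0 and 7, Cebpe had 0 and 12 and Ly6g, a marker of neutrophils, had 1 and 6. The other 5 were Chil1 at 689 and 929 TPM, Retnlg at 56.9 and 76.1 TPM, Mmp9 at 9.37 and 8.20 TPM, Mmp8 at 8.07 and 2.04 TPM, and Prtn3 with 0 and 20 counts. Of these 5, 3 were over 2-fold higher in replicate 2 and 1 lower, against 39.3% and 28.2% of all genes. Prtn3 is among the 3 and was 5.23-fold higher against 3 counts. The median log2 ratio of the 5 was 1.20, and -0.43 with the GC trend subtracted, against 0.19 and -0.02 over all genes. S100a8 and S100a9, abundant in mature neutrophils, were at 853 and 320 TPM and at 247 and 343 TPM. Ltf, another gene of neutrophil granules, had 134 and 762 counts in the same libraries. For genes low in both libraries, few cells of a type and little RNA per cell cannot be told apart in whole tissue.

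Among the 9 genes tested, the higher library by over 2-fold was replicate 2 for 7 and replicate 1 for 0, with Lyz1 and Reg3g within 2-fold. Their median log2 ratio was 2.15, against 0.19 over all 14139 genes, of which 39.3% were higher and 28.2% lower by that measure. The members' GC content ran from 44.6% in Reg3g to 57.5% in Wfdc2. Genes of higher GC content had higher ratios, with Spearman's rho = 0.967 and Pearson's r = 0.942 across the 9 genes, which share both libraries and are not independent. The correlation is given as a description only.

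A lowess trend fitted over all genes gave the ratio typical of each GC content. At that of Reg3g the trend was at -1.17 and at that of Wfdc2 at 3.97 on the log2 scale. With GC content taken as the unweighted mean over a gene's annotated transcripts, all 9 genes lay above the trend. The gaps ran from 0.43 for Bpifb1 to 2.73 for Slpi, with a median of 1.19. The leading Reg3g transcript alone has 47.1% GC, and at 47% the trend was -0.64, the same as the ratio of Reg3g. The leading Bpifb1 transcript of replicate 2 has 55.2% GC, and at 55% the trend was 2.60 against a ratio of 2.55. For both genes the place above the trend thus depends on how GC content is averaged. With the trend subtracted 5 genes remained over 2-fold higher, and 0 over 2-fold lower, beside 21.4% and 19.6% of all genes. These were Lyz2, Bpifa1, Ltf, Slpi and Wfdc2, while Bpifb1 at 0.43 and Lcn2 at 0.98 did not pass. The part that GC content plays in these ratios was not tested beyond this subtraction.

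**Figure D3:**
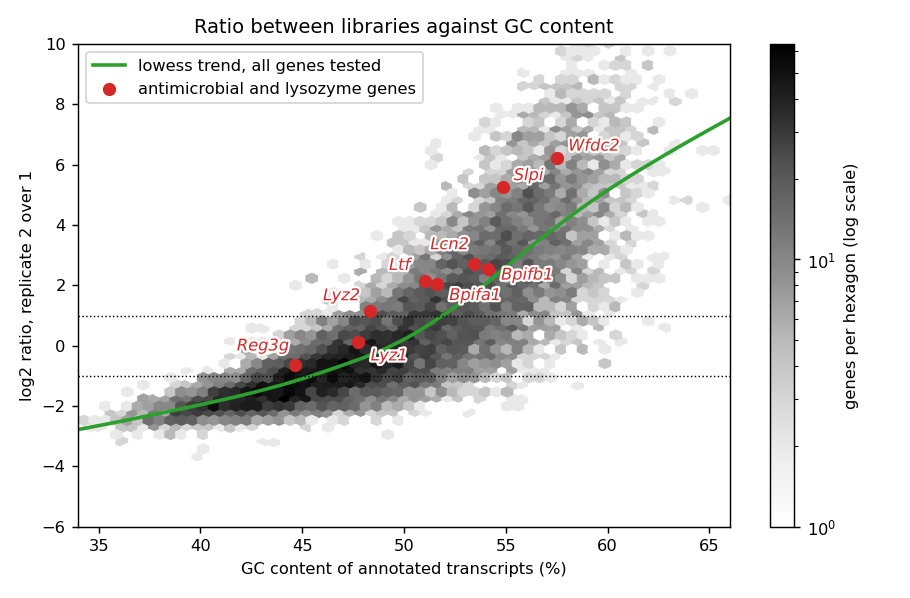
Log2 ratio of replicate 2 over replicate 1 in scaled counts against the mean GC content of a gene's annotated transcripts; grey hexagons show all genes tested within the axes, the green line their lowess trend, red points the 9 genes tested, and dotted lines 2-fold. The red points rise from Reg3g at 44.6% GC to Wfdc2 at 57.5% GC, and all lie above the green line.

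Transcript shares also differed between the libraries. The tables list 26 transcripts of the 10 genes, and 4 genes have a single one. Of the other 6 genes, Bpifa1, Slpi and Reg3g had the same leading transcript in both libraries. It held at least 97.05% of the gene's abundance in each. The authors' posterior share of the leading Slpi transcript was lower, 83.8% in replicate 1, where the gene has 20 counts, and 94.3% in replicate 2. For Bpifa1 it was 95.9% and 99.9%. In Bpifb1, Lcn2 and Wfdc2 the leading transcript differed. How often it differs over all genes with several transcripts was not computed, so these differences are a description only. Both libraries came from RNA of the same biological replicate, and the cause of the differences was not tested.

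For Bpifb1 the leading transcripts differed in their first exons. The transcript of 1637 bases starts with a non-coding exon of 40 bases (chr2:154200379-154200418) and held 98.5% of the gene in replicate 1 and 3.44% in replicate 2. The transcript of 1699 bases starts upstream with a non-coding exon of 76 bases (chr2:154190818-154190893) and held 0% and 96.4%. They share exons 2 to 15 and the coding sequence and differ in the end of exon 16, so both are annotated with the same protein. The authors' posterior estimate of the share of the longer one in replicate 1 was 7.42%.

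For Lcn2 the leading transcripts differed at both ends. The transcript of 915 bases held 22.2% in replicate 1 and 99.4% in replicate 2. The transcript of 908 bases, with 2 exons further upstream and without the last exon, held 76.6% and 0.28%. In counts these were 72.4 and 2701 for the first and 248 and 7.45 for the other.

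For Wfdc2 the leading transcripts differed in coding exons. The transcript of 849 bases, with 5 exons, held 1.78% in replicate 1 and 93.9% in replicate 2, from 11.1 and 21365 counts. The transcript of 429 bases, which lacks the printed exons 2 and 3, held 61.6% and 3.45%. A transcript of 397 bases held 36.6% and 0.07%. It starts within the gene, holds exon 2 and the first 123 bases of exon 3, and lacks exons 4 and 5. Exon 1 of the longest transcript has 66.8% G and C, the highest of its 5 exons, and exon 5 has 48.3%. In TPM the transcript of 429 bases was at 51.4 and 74.7, while that of 849 bases was at 1.48 and 2034. The gap between libraries thus lay mostly in the longest transcript.

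**Figure D4:**
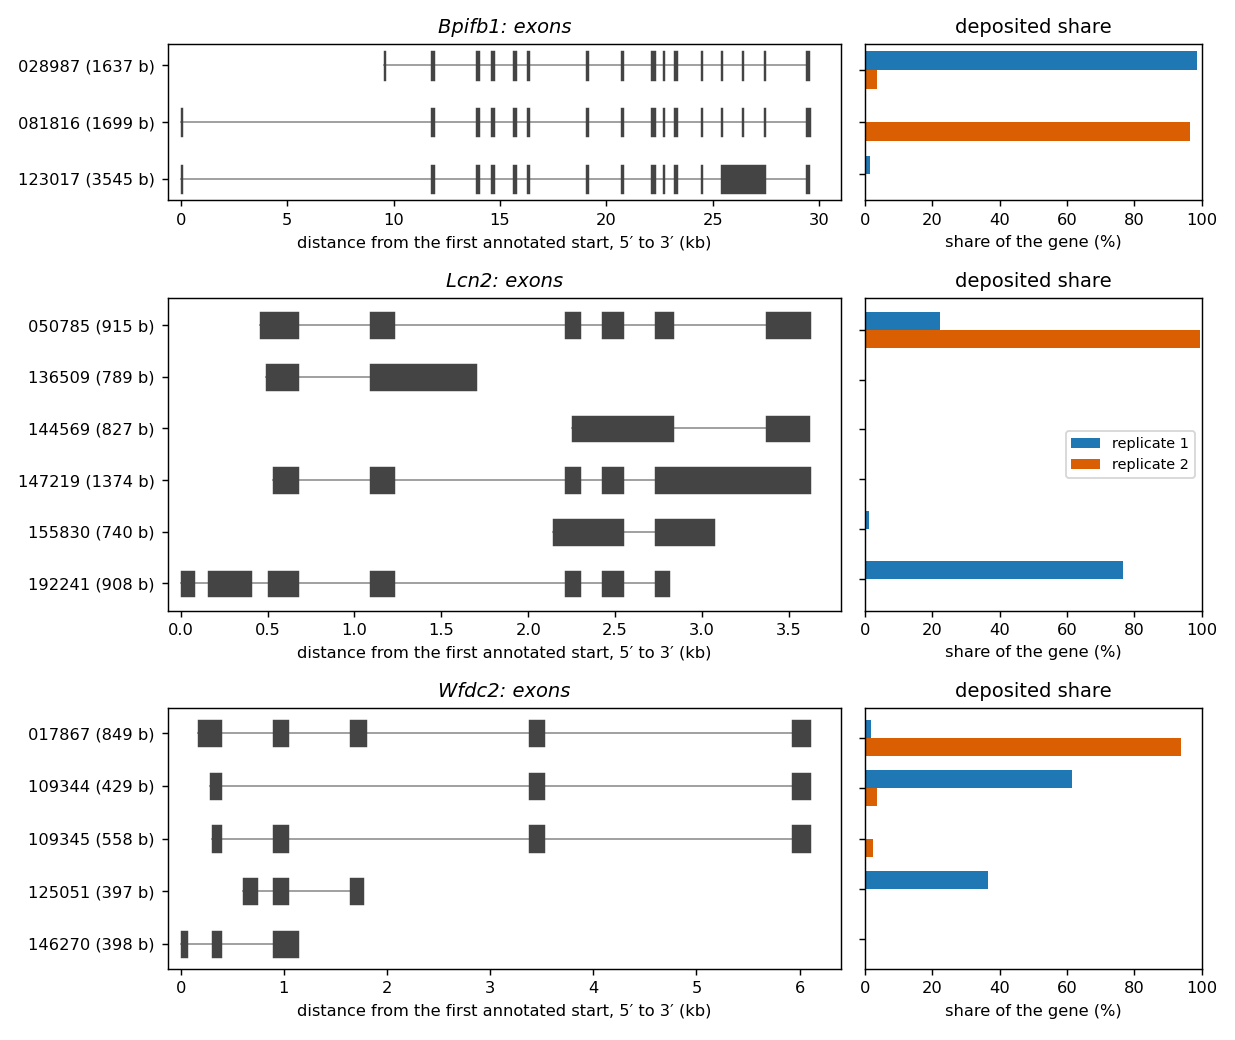
Left, exons (boxes) of the annotated transcripts of Bpifb1, Lcn2 and Wfdc2 against the distance from the gene's first annotated start in kilobases, labelled with the last 6 digits of the identifier and the length in bases; right, the deposited share of the gene in percent in replicate 1 (blue) and replicate 2 (orange). In each gene the transcript that leads in replicate 1 is another than the one that leads in replicate 2.

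The lists of genes that act with these proteins or mark the cells that make them are read against all genes tested, of which 39.3% were over 2-fold higher and 28.2% lower. The median over all genes was 0.19 on the log2 scale, and -0.02 with the GC trend subtracted. Of 24 other secreted or epithelial defence genes 15 were tested, with 6 over 2-fold higher in replicate 2 and 2 lower, which for the higher genes is near the share of all genes. Their median log2 ratio was 0.60, and 0.70 with the trend subtracted. Sftpa1, the collectin surfactant protein A, was at 1808 and 4344 TPM but within 2-fold in scaled counts, at 1.12-fold (1.11 to 1.13), since the mean transcript length behind its TPM was 2854 bases in replicate 1 and 1306 in replicate 2. The chemokine Cxcl15 was at 3288 and 1158 TPM and the chitinase-like Chil3 at 1766 and 941 TPM. Among receptors and uptake proteins 11 of 11 were tested, with 5 higher and 3 lower, both near the shares of all genes. Their median log2 ratio was 0.77, and 0.58 with the trend subtracted. Anxa2 was at 146 and 625 TPM, Lrp1, a receptor that takes up lactoferrin, at 4.27 and 89.8 TPM, and Fpr2, a receptor for cathelicidin peptides, at 56.0 and 18.9 TPM. Slc22a17, described as a receptor for Lcn2, had 2 and 195 counts, and its log2 ratio of 5.98 became -0.08 with the trend subtracted.

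Interleukins 17 and 22 and NF-kappaB are known to induce Lcn2, Reg3g and related genes. Of 19 genes listed for these routes, a TPM of 1 was reached by 14 in both libraries, by 2 only in the second and by 3 in neither. The 16 tested had 10 over 2-fold higher in replicate 2 and 3 lower, against 39.3% and 28.2% of all genes. Their median log2 ratio of 1.16 became -0.18 with the GC trend subtracted, against -0.02 over all genes. The receptor subunit Il10rb was at 67.7 and 52.5 TPM, and the transcription factors Cebpb and Cebpd were at 68.4 and 47.9 TPM and at 37.3 and 69.4 TPM. Il17a had no count in either library and Il22 had 3 and 0. Il22ra1, the other subunit of the interleukin 22 receptor, had 0 and 14 counts. Il17rc, a subunit of the interleukin 17 receptor, was at 0.54 and 25.05 TPM, and the transcription factor Spdef had 0 and 57 counts. With the GC trend subtracted, the log2 ratio of Il17rc went from 5.04 to -0.95. That of Spdef went from 6.68 to 1.59, but it rests on the prior of 0.5 counts in replicate 1. Against 3 counts Spdef was 14.9-fold higher, while the trend at its GC content was 5.09 on the log2 scale. Whether Spdef lies above the trend is therefore not resolved.

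The cell type lists are given by their summed levels and counts, and differences between the lists were not tested. The sum of the 6 club cell genes was 24657 and 188162 TPM, of which Scgb1a1 made 17498 and 174257. Scgb1a1, Scgb3a2 and Cbr2 led this list, with 4 genes over 2-fold higher in replicate 2 and 1, Aldh1a1, lower. For the 7 genes of alveolar type 2 cells the sum was 6859 and 48555 TPM, of which Sftpc made 287 and 39612. Sftpc, Sftpa1 and Cxcl15 led this list, with 3 genes higher and 2, Lamp3 and Cxcl15, lower. For the 8 of alveolar macrophages the sum was 2628 and 1912 TPM, led by Chil3, Ear2 and Ctsd, with 3 higher and 2 lower. For the 8 of neutrophils it was 1173 and 761 TPM, with 2 of 6 tested higher and 1 lower. For the 8 of goblet and gland cells it was 167 and 1846 TPM, of which Scgb3a1, a gene the club cell list also holds, made 160 and 1799, with 5 of 6 tested higher and 0 lower. Muc5ac had 0 and 24 counts and Dmbt1 had 1 and 4. Median log2 ratios were 2.66, 0.16, -0.39, 0.58 and 3.78 in the order given, and 1.74, 0.44, 0.29, 0.44 and 1.88 with the GC trend subtracted. The part of these cell types in the members' ratios was not tested.

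**Figure D5:**
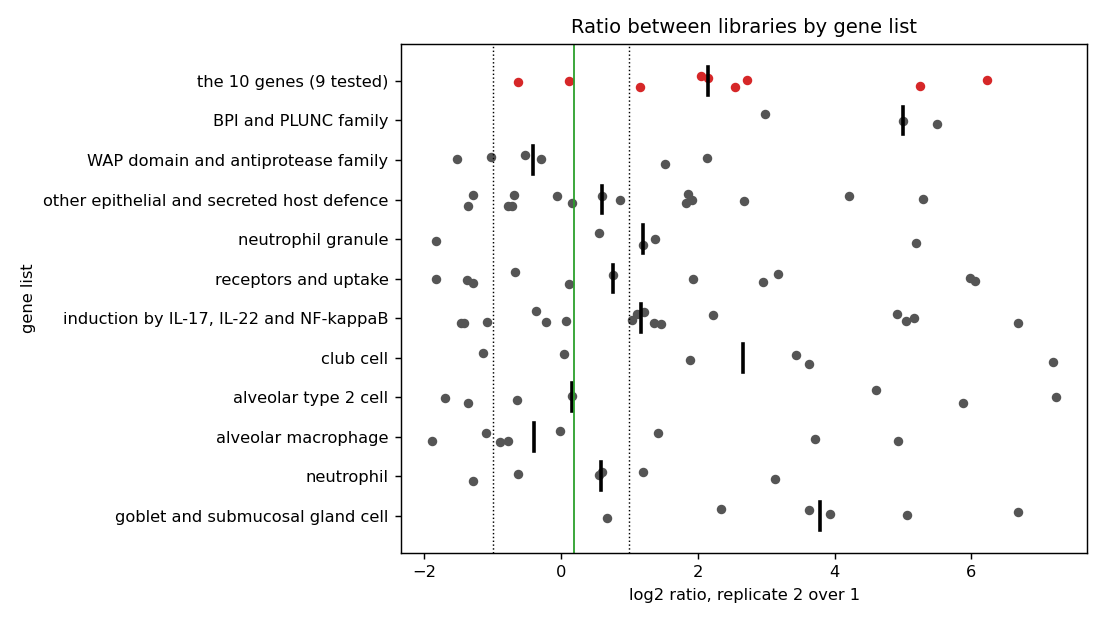
Log2 ratio of replicate 2 over replicate 1 for the tested genes of each list (points, spread vertically for visibility), with the list median as a black bar, the median of all genes tested (0.19) as a green line and 2-fold as dotted lines; genes without a count in replicate 1 are placed by the prior of 0.5 counts. The 9 genes tested range from Reg3g below 0 to Wfdc2 above 6, and most lists have points on both sides of the green line.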

How the data were processed

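Polyadenylated RNA of whole mouse lung was measured in 2 technical replicates, with a size range of 350 to 450 per the labels. The authors deposited 1 gene and 1 transcript table per library on mm10 and annotation M4. Which aligner and quantifier were used is not given in the sources used here. The deposited expected counts estimate how many reads each gene or transcript gave, and need not be whole. TPM and FPKM values were computed by the authors, and FPKM is not used here. The percent of a gene held by each transcript and the posterior SD of counts were deposited too. Symbols, positions and sequences came from GENCODE M21 and promoters from RefSeq, both on GRCm38. Of 43346 gene identifiers 42462 matched, and 22 of the 26 transcripts had the same length in both annotations, the exceptions being those of Lyz1, Lyz2, Ltf and Camp. The 26345 other rows per library held no counts.

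Expected counts were rounded and scaled with TMM in edgeR 4.0.16 (factors 0.913 and 1.10). Log2 ratios used a prior of 0.5 counts and were called where the mean TPM was 1 or more. With 1 group no test of conditions exists. Folds against 0 use 3 counts. GC content is the mean over a gene's transcripts, and the lowess span was 0.3. The ratio calculation was tested on simulated counts with few changed genes and no GC trend. That test does not cover differences between libraries as wide as those seen here. Genes were named if they were members, the top 3 of another list by mean TPM, or cell type markers below a TPM of 1, and further list genes were named after their values were seen. The members and lists were chosen with earlier results of these data known. Alternatives covered scaling, prior, filters, GC content, TPM estimates and leaving out a library. Python 3.11.15, scipy 1.17.1, statsmodels 0.14.6, Biopython 1.88 and R 4.3.3 with DESeq2 1.42.0 were used.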

Additional observations from a re-analysis of the deposited data

How the results depend on the processing

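The number of genes over 2-fold higher in replicate 2 was 7 under DESeq2 size factors, total counts, ratios of TPM or of posterior mean TPM, a prior of 1 count and a mean TPM of at least 10. The number was also 7 with Lyz1 and Lyz2 summed. It was 5 with the GC trend subtracted and 8 without a filter, where Camp enters with 1 and 5 counts. The number over 2-fold lower was 0 under each of these. The share of all genes over 2-fold higher ran from 21.4% with the GC trend subtracted to 42.4% by total counts, against 39.3%. The share over 2-fold lower ran from 19.6% with that trend subtracted to 34.2% at a mean TPM of at least 10, against 28.2%. Scaling moved the median of all genes from 0.19 to 0.45 by total counts and to 0.01 by TPM ratio. Lyz1, at 0.11, was at -0.03 by TPM ratio, Reg3g, at -0.64, was at 0.53 with the GC trend subtracted, and Camp, at 1.60, was at -0.56. Bpifb1 and Lcn2 fell under 2-fold with that trend subtracted. The summed TPM of the 10 genes was 7227 to 15824 when either replicate was left out, with a mean of 10826 as posterior mean TPM and 10035 as CPM, against 11526. With the detection limit raised to 10 TPM, 7 genes passed in both libraries in place of 9. Depth limits Camp, and Slpi in replicate 1, with 20 counts.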

Other observations

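Among other secreted defence genes of the lung surface, both directions between the libraries occurred. Sftpd, the collectin surfactant protein D, reached 64.3 TPM in replicate 1 against 1077 in replicate 2, 18.5-fold higher in scaled counts (17.2 to 19.8). Pglyrp1, a peptidoglycan recognition protein, had 5 and 270 counts. C3, the central complement component, was at 121 and 210 TPM and 6.38-fold higher in counts (6.05 to 6.73). Pigr, which carries IgA across epithelium, was at 32.5 and 18.3 TPM, 1.61-fold lower in replicate 2 (1.48 to 1.75). Rnase4 and Ang, ribonuclease genes whose annotated spans overlap, were at 955 and 507 TPM and at 21.8 and 63.1 TPM. The authors' posterior SD of either count was 1.41 in replicate 1 and 1.76 in replicate 2, against 151 and 681 counts of Ang. The antibacterial peroxidase Lpo and the oxidase Duox1 had no count in either library, and Duox2 had 5 and 11. These genes were chosen after their values were seen.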
